A study of Mus musculus with 2 samples.

Results

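The microRNA genes of the Mir17-92 and Mir106b-25 clusters were examined in the left cerebral cortex of female mice aged 14 days. All 9 annotated members were taken by gene identifier, out of 2202 microRNA loci counted: Mir17, Mir18, Mir19a, Mir20a, Mir19b-1 and Mir92-1 of the first cluster, and Mir106b, Mir93 and Mir25 of the second. The animals were B6CASTF1/J mice, the first generation of a cross between C57BL/6J and CAST parents. Small RNA libraries limited to under 30 nt formed 1 group of 2 biological replicates, with no treatment, engineered allele or second tissue. Replicate 1 is labelled as coming from several females and replicate 2 from a single female, and both carry the same donor record, so the spread between the libraries may be partly technical.

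Both clusters are polycistrons, in which several hairpins are cut from 1 primary transcript. Mir17-92 is processed from the long non-coding RNA Mir17hg and is activated by transcription factors of the MYC and E2F families. Mir106b-25 is carried by Mcm7, which encodes a subunit of the helicase that licenses DNA replication. Their microRNAs are known for promoting cell cycle progression and survival, with Bcl2l11 and Cdkn1a among their targets. In the developing brain both clusters are known from neural stem and progenitor cells, and Mir17-92 is described as declining when neurons differentiate.

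The 9 loci encode 4 seed groups, the seed being bases 2 to 8, which pair with target messengers. The arms below are those known as the main product of each hairpin. They are shown because the loci, grouped by seed below, differ in level and between the libraries. The counts do not separate the arms, and whether the seed goes with these differences was not tested. They are RefSeq sequences (GRCm38.p6), 5′ to 3′, with the seed in capitals.
miR-17-5p: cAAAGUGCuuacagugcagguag
miR-20a-5p: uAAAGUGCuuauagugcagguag
miR-106b-5p: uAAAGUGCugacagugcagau
miR-93-5p: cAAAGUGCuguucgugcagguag
miR-18a-5p: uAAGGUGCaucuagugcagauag
miR-19a-3p: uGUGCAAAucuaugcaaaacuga
miR-19b-3p: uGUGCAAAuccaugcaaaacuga
miR-92a-3p: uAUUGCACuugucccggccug
miR-25-3p: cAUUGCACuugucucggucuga

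The first 4 sequences share the miR-17 seed and differ from each other at 2 to 5 bases. Pairs with the shorter miR-106b-5p were compared over 21 positions and the other pairs over 23. Counted from 1 at the 5′ end, their differences lie at positions 1, 10, 11, 12, 13 and 20. From miR-17-5p to miR-20a-5p the changes are C1U and C12U, and from miR-17-5p to miR-93-5p they are U10G, A11U, C12U and A13C. The miR-18 seed of Mir18 differs from the miR-17 seed and stands alone among the members. miR-19a-3p and miR-19b-3p differ by U11C alone. miR-92a-3p and miR-25-3p share the miR-92 seed and differ by U1C, C14U and C18U over 21 compared positions.

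Sequence shared with other loci matters here, because reads that mapped to several places entered no locus count. Their share was 40.6% in replicate 1 and 37.9% in replicate 2. Only Mir92-1 and Mir19b-1 among the 9 members held a stretch of 20 nt or more in common with another annotated hairpin. The stretches are printed with the mature microRNA in capitals.
Mir92-1 and Mir92-2: gUAUUGCACUUGUCCCGGCCUG
Mir19b-1 and Mir19b-2: gcUGUGCAAAUCCAUGCAAAACUGA

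In both pairs the identity ends with the last base of the annotated mature RNA and extends 5′ of it, by 1 base for Mir92-1 and by 2 bases for Mir19b-1. A read of exactly the mature sequence could therefore not be assigned to either locus of a pair. The other 7 members shared at most 17 nt with any other annotated hairpin. Mir19a, whose mature RNA occurs in no other annotated hairpin, shared 13 nt. Matches elsewhere in the genome were not analysed here.

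Replicate 1 had 2740332 and replicate 2 had 3207941 reads on microRNA loci, 35.4% and 33.3% of all reads. Levels are reads on the RNA strand scaled to 1000000 per library (CPM). They were not divided by length, since a small RNA read spans the mature microRNA. A count of 0 allows up to 3 reads, or 1.09 CPM in replicate 1 and 0.935 CPM in replicate 2, and intervals cover counting error only. A locus is called detected at 10 reads or more in both libraries, which 389 loci reached. Of the labelled tissue's markers, 6 of 10 neuronal loci were detected, among them Mir137 at 6565 and 8340 CPM. The Mir124a loci, the defining neuronal family, stood between 0 and 3.74 CPM. The mature RNA of this family is known to be encoded at several loci, and the part of reads that mapped to several places in these counts was not tested.

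Together the 9 loci supplied 0.742% of locus-assigned reads in replicate 1 and 0.734% in replicate 2, a mean of 0.738 ± 0.00592% (SD, n = 2). The clusters contributed nearly equal parts by locus counts. The Mir17-92 sum leaves out reads of exactly miR-92a-3p and miR-19b-3p. No Mir106b-25 member shared 20 nt or more with another annotated hairpin. The shares and their ratio therefore compare locus counts, not amounts of the mature microRNAs. Mir17-92 held 0.399% in replicate 1 (exact binomial 95% interval 0.392 to 0.407%) and 0.360% in replicate 2 (0.354 to 0.367%). Mir106b-25 held 0.343% (0.336 to 0.350%) and 0.374% (0.367 to 0.380%) in the same order. The ratio of Mir17-92 to Mir106b-25 reads was 1.16 in replicate 1 and 0.965 in replicate 2, so the libraries lie on opposite sides of equality and the clusters could not be ranked (mean 1.06 ± 0.139, SD, n = 2). With 2 libraries the smallest p of an exact permutation test is 0.5, so none is given. In bulk tissue, fewer cells of a type and less RNA per cell cannot be told apart.

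Of the 9 members 7 were detected, and their levels spanned Mir25 to Mir93. Mir93 (ENSMUSG00000065527.1) had 7568 reads in replicate 1 and 9778 in replicate 2, which is 2762 and 3048 CPM. It was the member with the highest mean, 2905 ± 202 CPM (SD, n = 2), and ranked 60 and 58 among all 2202 loci. Mir17 (ENSMUSG00000065508.1), the first hairpin of its cluster, had 7075 and 5643 reads, or 2582 and 1759 CPM, and ranked 62 and 81. Its values lay below those of Mir93 in both libraries, by a Mir93 to Mir17 ratio of 1.07 in replicate 1 and 1.73 in replicate 2.

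A middle tier followed, whose order was not resolved. Mir92-1 (ENSMUSG00000076062.1), the last hairpin of Mir17-92, had 1418 reads in replicate 1 and 3825 in replicate 2, or 517 and 1192 CPM. Mir106b (ENSMUSG00000065514.1), the first hairpin of its cluster, had 1733 and 1982 reads, or 632 and 618 CPM. Mir20a (ENSMUSG00000065442.1), which shares the seed of Mir17, had 1941 and 1618 reads, or 708 and 504 CPM. In replicate 1 Mir20a was the highest of these 3 and Mir92-1 the lowest, and in replicate 2 the order was the reverse. All 3 lay below Mir17 in both libraries by locus counts, which at Mir92-1 leave out reads of exactly miR-92a-3p.

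Mir18 and Mir25 formed a lower tier, each apart from its neighbours in both libraries. Mir18 (ENSMUSG00000065403.1) had 498 and 477 reads, or 182 and 149 CPM. Mir25 (ENSMUSG00000065394.1), the last hairpin of Mir106b-25, had 108 and 223 reads, or 39.4 and 69.5 CPM. The share of detected loci with a lower mean than each member was 85.3% for Mir93, 80.7% for Mir17, 71.2% for Mir92-1, 67.6% for Mir106b, 67.1% for Mir20a, 51.7% for Mir18 and 39.3% for Mir25.

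Both miR-19 loci were at the floor. Mir19a (ENSMUSG00000065416.1) had 1 read in each library. Mir19b-1 (ENSMUSG00000076256.1) had 2 reads in replicate 1 and 0 in replicate 2, which by the 3-read limit allows up to 0.935 CPM there. They lie between Mir18, Mir20a and Mir92-1, which had at least 477 reads each, on the same primary transcript. Since miR-19 counts did not exceed the limit that 0 reads allow, no ratio to other members is given. These values describe reads assigned to the loci and do not show that miR-19 is absent.

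**Figure D1:**
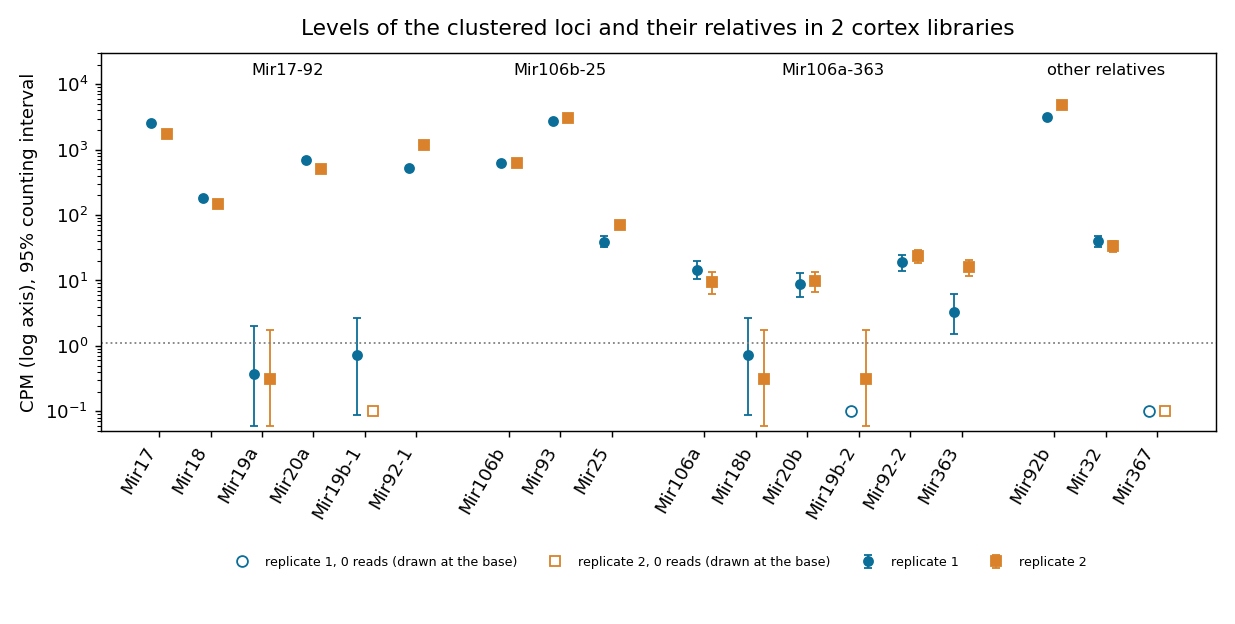
CPM on a log axis of the 9 members, the X-linked Mir106a-363 paralogs and 3 other seed relatives, with replicate 1 as circles and replicate 2 as squares. Bars are exact Poisson 95% intervals cut at the base of the axis, open symbols mark 0 reads, and the dotted line is the limit that 0 reads allow in replicate 1 (1.09 CPM). Mir93 and Mir17 stand highest among the members, while Mir19a and Mir19b-1 lie below that line.

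The hairpins are packed closely. Mir17-92 spans 836 nt of chromosome 14 on the plus strand (mm10, 115043671 to 115044506), with gaps of 35 to 96 nt between hairpins, and each hairpin overlaps an annotated exon of Mir17hg. Mir106b-25 spans 498 nt of chromosome 5 on the minus strand (138165321 to 138165818), with gaps of 118 and 126 nt. Mir106b lies in an intron of Mcm7, while Mir93 and Mir25 overlap an exon of at least 1 annotated Mcm7 transcript. No read was counted on the opposite strand at any of the 9 members in either library.

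Neighbouring hairpins differed widely in level although they share a transcript. Mir93 made up 80.4% of the Mir106b-25 reads in replicate 1 and 81.6% in replicate 2. Mir106b made up 18.4% and 16.5%, and Mir25 1.15% (exact binomial 95% interval 0.943 to 1.38%) and 1.86% (1.63 to 2.12%). The Mir93 to Mir106b ratio was 4.37 (interval 4.14 to 4.60) in replicate 1 and 4.93 (4.70 to 5.18) in replicate 2. The Mir93 to Mir25 ratio was 70.1 (58.0 to 85.5) in replicate 1 and 43.8 (38.4 to 50.3) in replicate 2. For both ratios the intervals of the libraries do not overlap.

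The make-up of the Mir17-92 locus counts also changed between the libraries. These counts leave out reads of exactly miR-92a-3p and miR-19b-3p. The shares and ratios below therefore do not give the make-up of the mature microRNAs. Mir17 made up 64.7% of the cluster's reads in replicate 1 and 48.8% in replicate 2, and Mir92-1 made up 13.0% and 33.1%. Mir20a contributed 17.8% and 14.0%, and Mir18 4.55% and 4.12%. The Mir17 to Mir20a ratio was close in the libraries, 3.65 (interval 3.47 to 3.83) in replicate 1 and 3.49 (3.30 to 3.69) in replicate 2. The Mir17 to Mir18 ratio was 14.2 and 11.8. The Mir17 to Mir92-1 ratio was 4.99 (4.71 to 5.29) in replicate 1 but 1.48 (1.42 to 1.54) in replicate 2. The intervals of the Mir17 to Mir20a ratio overlap between the libraries, and those of the Mir17 to Mir92-1 ratio do not.

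**Figure D2:**
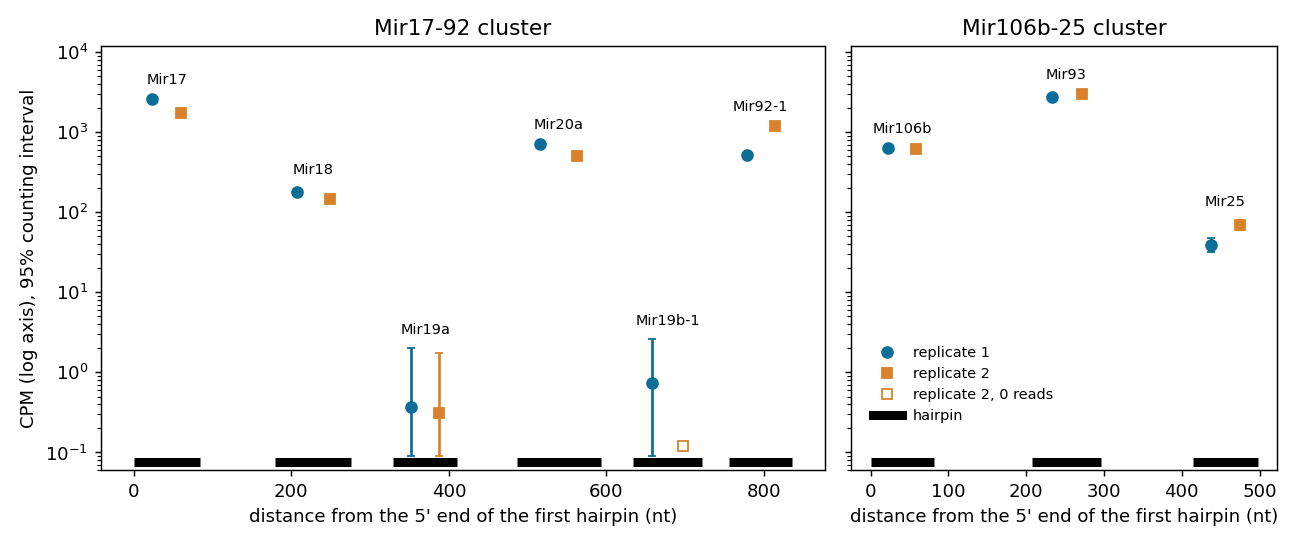
CPM on a log axis of each member against the distance in nt from the 5′ end of the first hairpin, for Mir17-92 on the left and Mir106b-25 on the right. Black bars mark the hairpins, circles replicate 1, squares replicate 2 with exact Poisson 95% intervals cut at the base, and the open square 0 reads. Levels do not follow position: Mir19a and Mir19b-1 lie at the floor between Mir18, Mir20a and Mir92-1, and Mir93 stands between the lower Mir106b and Mir25.

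The libraries were then set against each other locus by locus, as reads of replicate 1 over replicate 2 after scaling by the trimmed mean of M values (TMM). An exact binomial test (two-sided) was applied to each detected locus, and p-values were adjusted by the Benjamini-Hochberg method over all 389 of them, with a threshold of 0.05. The test compares the reads of these 2 libraries, not conditions. Its p-values cover counting error only. It called 6 of the 7 detected members, beside 58.4% of all detected loci. Of these, 4 were higher in replicate 1, beside 29.6% of all detected loci, and 2 were lower, beside 28.8%. At least 1.5-fold apart were 4 of the 7, beside 32.6%. The median log2 ratio was 0.21 over the 7 detected members and 0.01 over all detected loci. The members also had more reads: the median of the mean levels was 625 CPM for them and 149 CPM for all detected loci. With a minimum of 50 reads, 6 members were called beside 211 of 283 loci. The part of read depth in the calls was not tested.

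With TMM scaling, members with the miR-17 and miR-18 seeds were higher in replicate 1, except Mir93. It did not pass the test and turns sign by library totals. By locus counts, the members with the miR-92 seed were lower. Mir17 was higher in replicate 1 by a log2 ratio of 0.73 (95% interval 0.68 to 0.78) and Mir20a by 0.66 (0.57 to 0.76). Mir18 was higher by 0.46 (0.28 to 0.65) and Mir106b by 0.21 (0.11 to 0.30). The call of Mir106b (adjusted p = 3.69e-05, exact binomial) is lost when library totals are used without TMM scaling, with a ratio of 0.03 and adjusted p = 0.560. Over all 6 alternatives its adjusted p ran from 2.58e-05 to 0.560.

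Mir93 did not pass the test, at 0.03 (−0.01 to 0.07, adjusted p = 0.235, exact binomial). By library totals its sign turns, to −0.14 with adjusted p = 3.06e-10, and its adjusted p ran from 3.06e-10 to 0.860 over the 6 alternatives. That scaling moves the median of all detected loci to −0.16, against 0.01 with TMM. Mir92-1 was lower in replicate 1, at −1.03 (−1.12 to −0.94), and was the only member at least 2-fold apart, beside 11.3% of all detected loci. Its counts leave out reads of exactly miR-92a-3p, so this ratio is not that of the mature microRNA. Mir25 was lower at −0.65 (−0.99 to −0.31). In the 6 alternatives Mir92-1 ran from −1.20 to −1.03 and Mir25 from −0.82 to −0.64.

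Ratios within a library are free of the scaling. Mir92-1 and Mir25 together had 1526 reads in replicate 1 and 4048 in replicate 2, or 557 and 1262 CPM. The 4 members with the miR-17 seed had 18317 and 19021 reads, or 6684 and 5929 CPM. There were 0.0833 reads at Mir92-1 and Mir25 for each read at the 4 loci with the miR-17 seed in replicate 1 (interval 0.0790 to 0.0878) and 0.213 in replicate 2 (0.206 to 0.220). Mir92-1 supplied most of the reads at Mir92-1 and Mir25, with 1418 and 3825 reads, and its counts lack reads of exactly miR-92a-3p. The ratio therefore describes locus counts and not the amounts of the mature microRNAs.

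Markers of several cell types also differed between the libraries. The 10 neuronal markers, 6 of them detected, summed to 24077 CPM (replicate 1) and 37007 CPM (replicate 2). They did not move together: Mir128-1 stood at 5376 and 15159 CPM and Mir128-2 at 2224 and 4923 CPM, but Mir132 at 9788 and 8428 CPM. Oligodendrocyte markers (2 of 2 detected) summed to 4262 and 1466 CPM, and endothelial Mir126a stood at 16741 and 9390 CPM. Erythroid markers (3 of 3 detected) summed to 976 and 585 CPM, with Mir451a at 908 and 510 CPM and Mir144 at 43.4 and 53.6 CPM. Leukocyte markers (2 of 3 detected) summed to 570 and 1150 CPM. Smooth muscle markers (2 of 2 detected) summed to 4474 and 4216 CPM, and the liver locus Mir122 had 60.9 and 43.0 CPM. Their part in the differences between the libraries was not tested.

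**Figure D3:**
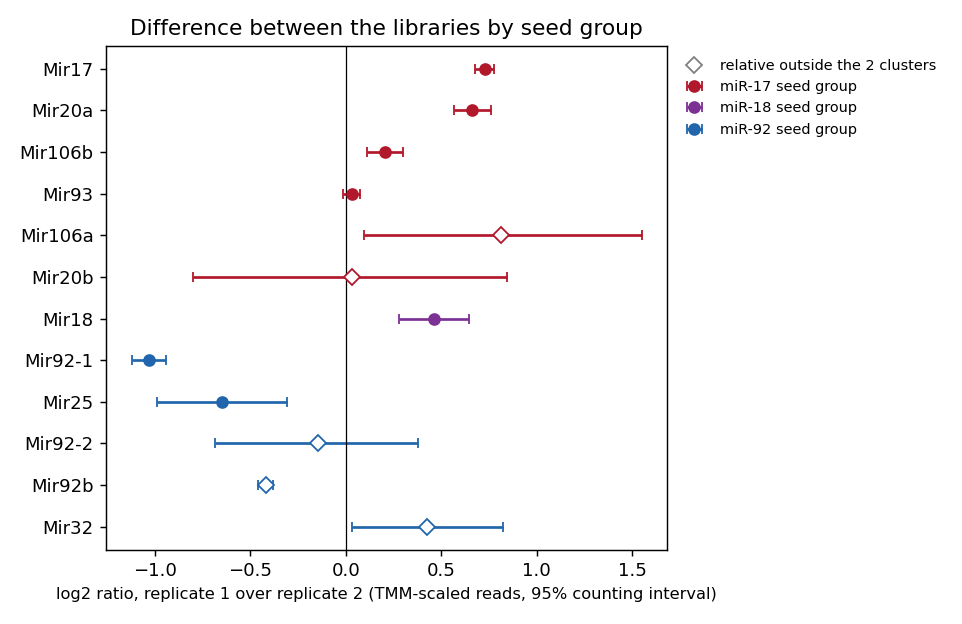
Log2 ratio of TMM-scaled reads, replicate 1 over replicate 2, with 95% counting intervals, for the detected members (filled circles) and detected relatives (open diamonds), coloured by seed group. Mir17, Mir20a, Mir18 and Mir106b lie right of 0 and Mir92-1 and Mir25 left of it. Among the relatives of the miR-92 group, Mir92b lies at −0.42, while the values of Mir32 (0.43) and Mir92-2 did not pass the test. Among those of the miR-17 group, Mir106a (0.81, on 40 and 30 reads) passed the test and Mir20b (0.03) did not.

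The relatives of the members were counted in the same libraries. The Mir106a-363 cluster of the X chromosome is a paralog of Mir17-92, and it spans 875 nt (52741693 to 52742567, minus strand). The 9 members had 20344 reads in replicate 1 and 23547 in replicate 2, against 127 and 190 reads for the 6 paralogs. This is a ratio of 160 in replicate 1 (interval 135 to 192) and 124 in replicate 2 (107 to 144). Mir17-92 alone exceeded its paralog cluster 86.1-fold and 60.9-fold in replicates 1 and 2. Reads of exactly miR-92a-3p and miR-19b-3p, which both clusters encode, enter none of these sums.

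The gap held for each pair of counterparts with counts above the floor. Mir17 exceeded Mir106a, whose mature sequence differs from miR-17-5p by U10A alone, 177-fold in replicate 1 (130 to 248) and 188-fold in replicate 2 (132 to 279). Mir106a itself had 40 and 30 reads. Mir20a exceeded Mir20b, with 24 and 31 reads, by 80.9-fold and 52.2-fold. Mir92-1 exceeded Mir92-2, which encodes the same miR-92a-3p and had 52 and 76 reads, by 27.3-fold and 50.3-fold. The stretch they share is printed above, and its reads enter neither count.

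The remaining paralogs were low. Mir18b was at the floor, with 2 reads in replicate 1 and 1 in replicate 2. Mir19b-2, like Mir19b-1, was at the floor with 0 and 1 reads. Mir363, with the miR-92 seed, had 9 reads in replicate 1 and 51 in replicate 2, or 3.28 and 15.9 CPM, and so was not detected.

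Among the other relatives Mir92b stood apart. It had 8657 reads in replicate 1 and 15278 in replicate 2, or 3159 and 4763 CPM, more than any member in either library. miR-92b-3p is printed because it carries the miR-92 seed and differs from miR-92a-3p by U10C and G21C over 21 compared positions. It is 22 nt long and miR-92a-3p 21 nt.
miR-92b-3p: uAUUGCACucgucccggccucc

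There were 0.164 Mir92-1 reads for each Mir92b read in replicate 1 and 0.250 in replicate 2. Mir92b was lower in replicate 1 by −0.42 on the log2 scale (−0.46 to −0.38). The Mir92-1 counts leave out reads of exactly miR-92a-3p, so these ratios do not rank the loci as sources of the miR-92 seed. Mir32, in an intron of Tmem245, had 110 and 108 reads, or 40.1 and 33.7 CPM, close to Mir25 in replicate 1. Its log2 ratio of 0.43 did not pass the test (adjusted p = 0.0564, exact binomial). Mir367, known from pluripotent cells, had 0 reads in both libraries, which by the 3-read limit allows up to 1.09 and 0.935 CPM.

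By the distance of log2(CPM + 1) over the 2 libraries, the loci closest in level to Mir93 were Mir22 (3003 and 3077 CPM, distance 0.122), Mir369 of the imprinted Dlk1-Dio3 region (2522 and 3245 CPM, 0.159) and Mir674 (2787 and 2691 CPM, 0.180). Closest to Mir17 were Mir138-2 (2521 and 1856 CPM, 0.0847), Mirlet7f-2 of the let-7 family (2298 and 1806 CPM, 0.172) and Mir322 (2426 and 1551 CPM, 0.203). Closeness over 2 libraries describes level only.

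**Figure D4:**
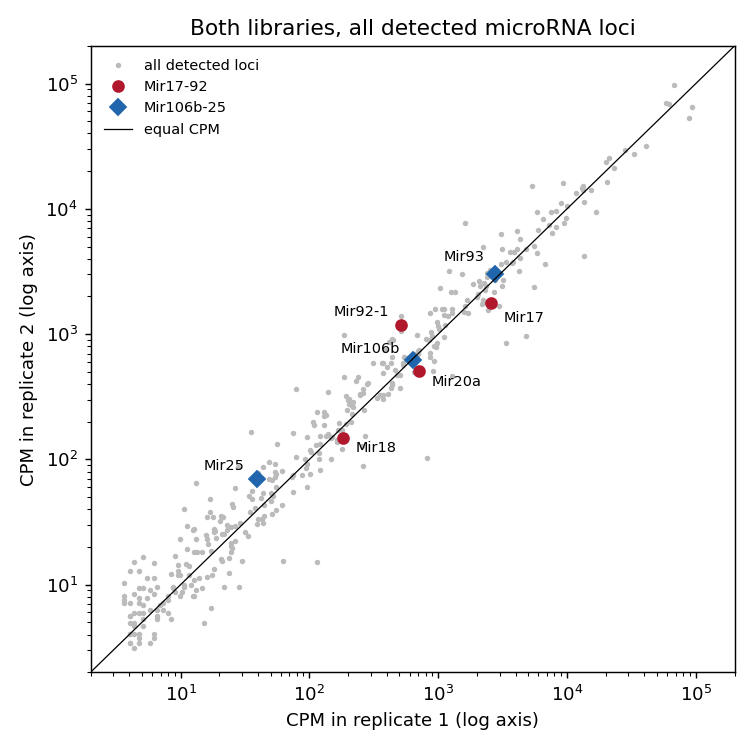
CPM of the 389 detected loci in replicate 1 (horizontal) and replicate 2 (vertical), both on log axes, with the line of equal CPM. Grey points are all detected loci, red circles the detected Mir17-92 members and blue diamonds the Mir106b-25 members. Mir92-1, Mir25 and Mir93 lie above the line and Mir17, Mir20a, Mir18 and Mir106b below it, with Mir93 and Mir106b close to it.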

How the data were processed

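Small RNA libraries from 2 biological replicates of 1 group were compared. The deposited values are whole-number counts of reads for each microRNA gene in 3 unnamed columns, made by the authors on mouse build mm10 with GENCODE M21, per the file list deposited with them; how reads were trimmed, aligned and counted is not given in the sources used here. From the values, the columns count reads of either strand, of the RNA strand (used here) and of the opposite strand. Library sizes leave out 4 rows without a gene name: in replicate 1 unmapped reads were 18.1%, multimapped 40.6% and off-gene 5.93% of 7745369 reads, and in replicate 2 they were 22.8%, 37.9% and 6.03% of 9627908.

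Symbols, positions and hosts came from GENCODE M21 (all identifiers matched). Mature sequences came from RefSeq (GRCm38.p6), in which all 18 members and listed relatives matched. CPM, exact Poisson and binomial intervals (95%), TMM factors (edgeR 4.0.16) and two-sided exact binomial tests were computed in R 4.3.3 and Python 3.11.15 with SciPy 1.17.1. On simulated Poisson counts for 389 loci, 200 of them changed 2-fold, the test recovered 87.0% and called 0.529% of unchanged loci. The simulation held no variation between libraries beyond counting. Its rates therefore do not describe the 2 real libraries, where 58.4% of detected loci were called. edgeR's quasi-likelihood test needs replicated groups and was not used. Named loci were all members, 9 listed relatives and the 3 loci closest in level to Mir93 and Mir17. The members and lists were chosen with earlier results of these data known.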

Additional observations from a re-analysis of the deposited data

How the results depend on the processing

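With counts taken without regard to strand, the summed level of the 9 members was 7925 CPM, against 7382 CPM on the RNA strand, the Mir17-92 share 0.408% and the Mir106b-25 share 0.385%, because reads at overlapping loci leave the total while the members' own counts stay as they are. With all reads of a library as the denominator they were 2536 CPM, 0.131% and 0.123%. Single libraries gave 7340 to 7424 CPM, 0.360 to 0.399%, 0.343 to 0.374% and a cluster ratio of 0.965 to 1.16. The count of 6 called members was the same with DESeq2 size factors (DESeq2 1.42.0), library totals, a minimum of 5 or 50 reads or none, and counts without strand. By library totals the 6 include Mir93, whose log2 ratio reversed to −0.14, and leave out Mir106b (0.03). The test cannot be run without a replicate. No paired analysis was possible because there is 1 group.

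The counts do not separate the arms of a hairpin. The reads were counted on the mm10 reference, and the part of CAST alleles, of ligation preferences and of multimapped reads in the levels of single loci was not tested.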

Other observations

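Among all microRNA loci in RefSeq, 7 encode a mature RNA with the miR-17 seed, 2 with the miR-18 seed, 3 with the miR-19 seed and 7 with the miR-92 seed. A single locus of these, Mir6383 with the miR-17 seed, lies outside the members and listed relatives, and it had 0 reads in both libraries. It was looked up after the other values were seen.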
